A study of Homo sapiens with 6 samples.

Results

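Antigen presentation genes build and load the MHC molecules with which a cell shows peptides to T cells. The 39 genes described here were taken by name: 16 of the class I pathway, 18 of the class II pathway, and 5 others (CD1C, CD1D, MR1, MICA and MICB). Of 33297 probe sets on the array, 74 carried the name of at least 1 of them. A probe set is the group of probes that together read a transcript. For 31 genes at least 1 probe set named that gene alone (52 probe sets), and 6 genes (HLA-B, HLA-C, HLA-F, HLA-DRA, HLA-DRB1 and CD74) were read only by probe sets shared with other genes. A further 22 probe sets carried several names and are given apart. HLA-E and HLA-G had no probe set in the annotation used, so their RNA was not read, and HLA-G enters only the promoter counts.

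The cells were RL, an established human B-cell lymphoma line with the t(14;18) translocation, obtained from the DSMZ collection. Untreated cells gave 3 arrays. The other 3 came from cells exposed to LY317615 (enzastaurin, an inhibitor of protein kinase C beta) at 2.5 mM per the labels, and all 6 are titled 48 h. The unit of that dose is doubtful: micromolar may have been meant, and no other source was at hand to check it. No vehicle is named for the untreated cells, and both groups come from this line alone. The series text speaks of independent replicates, but no label says that they were separate cultures, so p-values measure only array-to-array spread, part of which may be technical.

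MHC class I molecules consist of a heavy chain (HLA-B, HLA-C and others) and the light chain B2M. They display peptides cut by the proteasome and pumped into the endoplasmic reticulum by the transporter TAP. MHC class II molecules (HLA-DR, -DQ and -DP) display peptides from endosomes. They travel with the invariant chain CD74 and exchange its remnant for peptide with the help of HLA-DM, which HLA-DO restrains. B cells express class II constitutively through the transactivator CIITA, and NLRC5 plays a like part for class I. Interferons induce much of the class I pathway through ISRE and GAS elements in promoters.

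After LY317615, RL cells had more RNA for the class I light chain, for heavy chains, for the peptide transporter and for PSMB9, and more for HLA-DQ and HLA-DMB. IFI30, HLA-DOA and CD1C were lower, but these calls were lost in 2, 7 and 6 of 15 refits with other settings. HLA-DPB1 and RFXANK also rose, with calls lost in 6 and 7 refits, and the TAP2 call was lost in 4. The transactivator genes NLRC5 and CIITA did not pass the test. CIITA passed as lower in 2 refits, both on rescaled arrays, and NLRC5 passed in none. By the brightest probe set of each gene, 9 of 31 genes rose, 3 fell and 19 did not pass (limma, Benjamini-Hochberg over the whole table, threshold 0.05), against 27.8% of 18418 genes called over the array (9.37% higher, 18.5% lower). Untreated and treated arrays did not overlap for 17 of the 31, against 49.8% of genes on the array. Over all probe sets 25.4% were called (10.5% higher and 14.9% lower), and 44.8% had groups that did not overlap. The median log2 fold change was 0.073 over the 31 genes and 0.021 over the array. The array's split of 3489 higher and 4972 lower probe sets became 2236 and 6229 with the array medians set equal. Leaving out untreated replicate 1, 2 or 3 reduced the 8461 calls over the array to 5621, 4599 and 4860.

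Several genes had more than 1 probe set, and the copies are not independent readings. Of the 74 member probe sets, 17 had values equal to those of another in all 6 arrays, as for the 3 probe sets of TAP1, of PSMB9 and of PSMB8. Among the 52 probe sets of a single gene, 18 were higher and 4 lower, against 27.9% called (9.61% higher, 18.3% lower) of all such probe sets, and these counts weight genes by their copies. Groups did not overlap for 29 of them, against 49.6%. Without untreated replicate 1 or 3, 10 were higher, and the 4 falls became 0 without untreated replicate 2 or 3. Of the 22 shared probe sets 19 were higher, 0 were lower and 3 did not pass, against 28.2% called (13.7% higher) of all 1753 probe sets with several names. All 22 had groups that did not overlap, against 50.4%. The 19 became 15 without any 1 array. On shared probe sets a change cannot be assigned to 1 of the named genes.

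**Figure D1:**
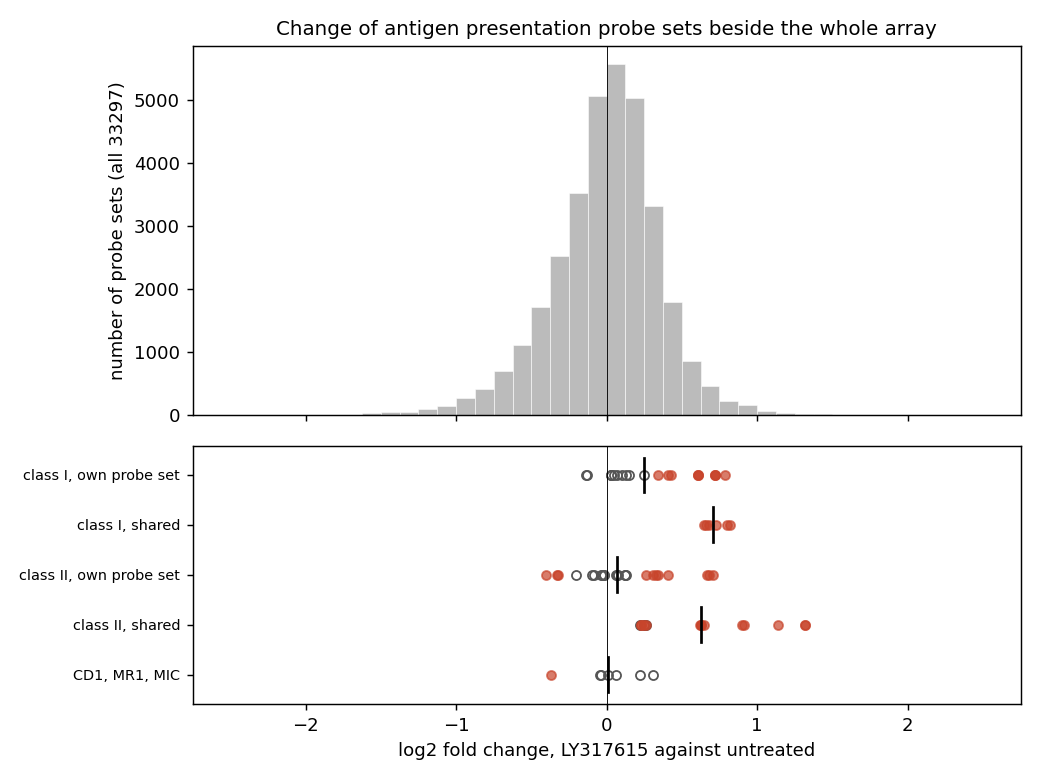
The upper panel counts all 33297 probe sets by log2 fold change (LY317615 against untreated), and the lower panel places each member probe set on that axis, filled where it passed an adjusted p of 0.05, with black bars at the medians. Shared class I probe sets lie from 0.65 to 0.82, and class II probe sets of a single gene spread from -0.40 to 0.71.

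The promoters of a few members are printed here because their RNA results differ: B2M, TAP1 and PSMB9 rose together, HLA-DQB1 had the largest changes on its shared probe sets, and HLA-DMB rose while its partner HLA-DMA did not pass. Each sequence is the 250 bases before a RefSeq start site (GRCh38.p14), 5′ to 3′ on the gene's strand. Where several were given, the start at the outer end of the gene was preferred. Capitals mark matches, on either strand, to the ISRE core (GAAA, any 2 bases, GAAA), the GAS core (TTC, any 3 bases, GAA), the Y box core (ATTGG) and the X2 box core (TGACG). TAP1 and PSMB9 are transcribed away from each other with 487 bases between their start sites. Their windows share 13 bases, which hold the Y box core of both. B2M lies at chr15:44711267-44711516 (plus strand), TAP1 at chr6:32853705-32853954 (minus strand), PSMB9 at chr6:32853942-32854191 (plus strand), HLA-DQB1 at chr6:32666658-32666907 (minus strand), HLA-DMB at chr6:32941029-32941278 (minus strand) and HLA-DMA at chr6:32953098-32953347 (minus strand).
B2M: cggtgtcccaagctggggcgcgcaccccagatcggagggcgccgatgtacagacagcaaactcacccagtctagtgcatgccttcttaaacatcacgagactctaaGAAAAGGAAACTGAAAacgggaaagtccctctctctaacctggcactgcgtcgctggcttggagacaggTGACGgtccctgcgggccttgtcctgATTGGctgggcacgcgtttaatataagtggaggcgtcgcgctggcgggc
TAP1: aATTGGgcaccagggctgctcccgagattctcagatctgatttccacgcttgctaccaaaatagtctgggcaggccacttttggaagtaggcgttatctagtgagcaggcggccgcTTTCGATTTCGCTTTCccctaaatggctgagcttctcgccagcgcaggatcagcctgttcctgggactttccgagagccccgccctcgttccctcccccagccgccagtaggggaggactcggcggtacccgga
PSMB9: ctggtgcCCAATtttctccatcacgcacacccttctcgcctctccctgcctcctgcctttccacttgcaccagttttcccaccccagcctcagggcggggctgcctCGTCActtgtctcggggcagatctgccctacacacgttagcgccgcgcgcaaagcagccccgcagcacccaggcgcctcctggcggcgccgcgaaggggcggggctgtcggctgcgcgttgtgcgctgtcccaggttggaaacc
HLA-DQB1: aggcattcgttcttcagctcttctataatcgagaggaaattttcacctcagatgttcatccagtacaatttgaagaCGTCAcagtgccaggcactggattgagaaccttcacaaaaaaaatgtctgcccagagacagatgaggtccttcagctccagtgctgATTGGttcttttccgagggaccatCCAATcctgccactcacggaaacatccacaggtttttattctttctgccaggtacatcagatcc
HLA-DMB: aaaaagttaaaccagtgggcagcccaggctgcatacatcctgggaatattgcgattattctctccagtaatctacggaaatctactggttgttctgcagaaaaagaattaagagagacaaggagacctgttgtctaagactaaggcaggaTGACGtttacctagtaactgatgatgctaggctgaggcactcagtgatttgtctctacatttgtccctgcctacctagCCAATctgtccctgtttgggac
HLA-DMA: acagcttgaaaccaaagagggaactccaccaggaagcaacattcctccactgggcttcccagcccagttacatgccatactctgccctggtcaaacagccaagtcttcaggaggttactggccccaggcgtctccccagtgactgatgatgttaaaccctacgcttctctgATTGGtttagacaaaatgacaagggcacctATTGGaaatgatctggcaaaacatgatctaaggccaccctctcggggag

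RefSeq windows were at hand for 34 of the 39 members, and a single window was kept for each. All 35116 windows set beside them were not cut down in this way and can hold several per gene. The shares are therefore not matched, and whether a kept window holds the start used in RL was not tested. The ISRE core was found in 6 of the 34 members (17.6%), against 3.02% of all 35116 windows of the same length. These were HLA-F, B2M, TAP1, TAP2, TAPBP and PSMB10; B2M, TAP1 and TAPBP hold 2 overlapping matches each. The TAP1 matches lie between the start sites of TAP1 and PSMB9, but outside the PSMB9 window. B2M, TAP1 and TAP2 rose, shared probe sets of HLA-F rose, and TAPBP and PSMB10 did not pass. The Y box core was found in 22 members (64.7%, against 32% of all windows) and the X2 box core in 11 (32.4%, against 21.2%). A kappa B core (GGG, any 5 bases, CC) was found in 18 (52.9%, against 54.4%), and the GAS core only in HLA-DQA1 (2.94%, against 6.57%). Such short motifs match often, and a match is a description of the letters, not a binding site.

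The class I light chain had the clearest rise among genes with their own probe set. B2M (probe set 7983360) read 10.77, 10.72 and 10.79 in the untreated arrays and 11.53, 11.62 and 11.51 in the treated arrays, as log2 intensity. All treated arrays lay above all untreated ones. The change was 0.79 ± 0.072 (SE, n = 3 against 3; limma, adjusted p = 0.00128), a 1.73-fold rise. It passed under all 15 refits at that threshold, between 0.71 and 0.89.

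The heavy chains were read by shared probe sets only. On the brightest of 3 probe sets named for HLA-B and HLA-C (8179731), untreated values were 11.44, 11.47 and 11.50 and treated values 12.30, 12.24 and 12.06. The groups were apart by more than the spread within either, and treated replicate 3 was the lowest of the treated arrays. These 3 probe sets rose by 0.73 to 0.82 on the log2 scale (adjusted p 0.00217 to 0.00239, limma). For the 3 probe sets named for HLA-B and HLA-F, the brightest (8177717) went from 7.22, 7.07 and 7.27 to 7.90, 7.98 and 7.71. Their changes were 0.65 to 0.68 (adjusted p 0.00477 to 0.00604, limma). HLA-B and HLA-C present peptides to T cells throughout the body, and HLA-F is a less polymorphic relative. All 6 of these probe sets kept passing under every alternative that included them.

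Within the peptide-loading machinery the transporter rose, and the chaperones did not pass on the deposited scale. TAP1 (probe set 8125512), which with TAP2 forms the pump, read 8.60, 8.73 and 8.73 untreated and 9.40, 9.61 and 9.22 treated. Its rise was 0.72 ± 0.11 (SE; limma, adjusted p = 0.00565), with the treated arrays spread more widely (SD 0.19) than the untreated ones (SD 0.077). TAP2 (probe set 8125483) went from 8.49, 8.59 and 8.44 to 8.81, 8.93 and 8.81, a smaller change of 0.34 ± 0.080 (limma, adjusted p = 0.0224). The groups did not overlap for either. TAP2's call on this probe set was lost with array medians set equal and without untreated replicate 1, untreated replicate 3 or treated replicate 2 (adjusted p up to 0.0816). Tapasin (TAPBP), which bridges TAP and class I, changed by 0.072 to 0.15 over 3 probe sets (adjusted p 0.211 to 0.616). After cyclic loess its brightest probe set (8180166) passed, at 0.27 (adjusted p = 0.0277). Its relative TAPBPL changed by 0.25 ± 0.10 (adjusted p = 0.113), passing only after cyclic loess, with array weights or without treated replicate 3 (adjusted p down to 0.0413). The trimming peptidase genes ERAP1 and ERAP2 read 0.10 ± 0.083 and -0.13 ± 0.074 (adjusted p 0.395 and 0.247), with treated replicate 3 the lowest treated array for both. ERAP1 passed after cyclic loess (0.25, adjusted p = 0.0390).

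Of the immunoproteasome subunits, which replace catalytic subunits of the standard proteasome, only PSMB9 passed. PSMB9 (probe set 8118571) read 8.40, 8.49 and 8.39 untreated and 9.10, 9.02 and 8.97 treated. That was a rise of 0.61 ± 0.076 (SE; limma, adjusted p = 0.00279), without overlap and under all alternatives (0.53 to 0.76). PSMB8, its neighbour in the MHC region, had untreated and treated values that overlapped, with a change of 0.030 ± 0.087 (adjusted p = 0.830). PSMB10 changed by -0.14 ± 0.086 (adjusted p = 0.270). The transactivator NLRC5 did not pass either: 6.13, 6.01 and 6.15 untreated against 6.24, 6.14 and 6.06 treated, a difference of 0.047 ± 0.083 (adjusted p = 0.714) whose sign turned with either rescaling (-0.032 with array medians set equal, -0.040 after cyclic loess).

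**Figure D2:**
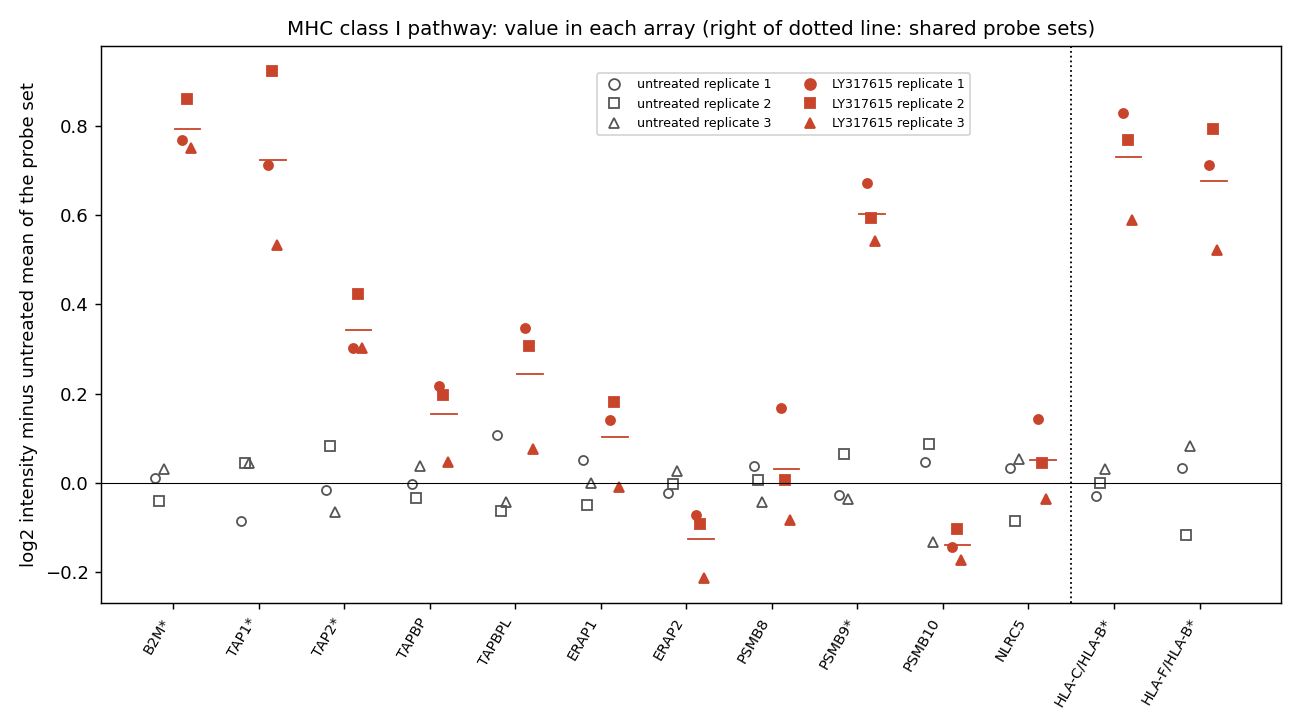
Each point is an array's log2 intensity minus the mean of the untreated arrays on that probe set, for class I pathway genes (brightest probe set) and, right of the dotted line, the brightest of each shared group. Red bars are treated means and an asterisk marks an adjusted p under 0.05. B2M, TAP1, TAP2, PSMB9 and the heavy-chain probe sets lie apart from the untreated points, while PSMB8 and NLRC5 straddle 0.

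Among the class II chains, HLA-DQ probe sets had the largest rises. On the brightest probe set named for HLA-DQB1 and its close relative HLA-DQB2 (8178826), values went from 9.18, 8.93 and 9.02 to 10.26, 10.42 and 10.39. This rise of 1.32 ± 0.094 (SE; limma, adjusted p = 0.000742), or 2.49-fold, was the largest of all 74 member probe sets. The 4 probe sets of that name rose by 0.90 to 1.32. The single probe set named for HLA-DQB1 alone (8125461) was dim, at 5.10, 4.86 and 5.42 untreated and 5.76, 5.76 and 6.0 treated. It rose by 0.71 ± 0.15 (limma, adjusted p = 0.0164), a call lost without untreated replicate 1 or treated replicate 3 (adjusted p up to 0.0531).

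The alpha chain of HLA-DQ moved the same way. HLA-DQA1 (probe set 8118556) read 10.14, 10.04 and 10.02 untreated and 10.39, 10.47 and 10.57 treated, without overlap. Its change was 0.41 ± 0.082 (SE; limma, adjusted p = 0.0129), lost without untreated replicate 2 or 3 (adjusted p up to 0.0522). The 4 probe sets shared by HLA-DQA1 and HLA-DQA2 rose by 0.62 to 0.65, and the brightest (8178199) went from 11.99, 12.03 and 12.01 to 12.68, 12.57 and 12.69. All 4 passed under every alternative that included them.

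Most HLA-DR and HLA-DP probe sets had smaller fold changes than those of HLA-DQ, a difference that was not tested. The brightest probe set named for HLA-DRA, the invariant alpha chain of HLA-DR, and HLA-DQA1 (8178193) went from 11.64, 11.54 and 11.49 to 11.78, 11.85 and 11.80, a change of 0.26 ± 0.076 (limma, adjusted p = 0.0453). The other two probe sets of that name did not pass, with changes of 0.25 and 0.26. Probe sets named for the HLA-DRB genes together with HLA-DQB1 rose by 0.23 to 0.25, and the brightest (8178811) went from 9.32, 9.26 and 9.30 to 9.53, 9.51 and 9.52. These 4 calls were lost when the replicate number was a block, when array medians were set equal and without any 1 of the 6 arrays (adjusted p up to 0.168). A probe set named for HLA-DRB1 and HLA-DQB1 (8125447) stood out from them at 6.66, 6.62 and 6.54 untreated and 7.78, 7.93 and 7.53 treated, a rise of 1.14 ± 0.11 (limma, adjusted p = 0.00152). HLA-DRB5 alone read 0.13 ± 0.10 (adjusted p = 0.339). These genes are polymorphic, and how probes meet the alleles of RL was not tested.

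For HLA-DP, the beta chain HLA-DPB1 (brightest probe set 8179519) went from 9.35, 9.39 and 9.27 to 9.66, 9.72 and 9.57. Its 3 probe sets rose by 0.31 to 0.34 (limma, adjusted p 0.0247 to 0.0316). The groups did not overlap, but the calls were lost with array medians set equal and without any 1 array other than treated replicate 3 (adjusted p up to 0.106). The alpha chain HLA-DPA1 changed by 0.073 to 0.12 (adjusted p 0.241 to 0.483).

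The peptide-exchange genes moved in different directions. HLA-DMB (probe set 8125530), the beta chain of the exchange catalyst, read 8.83, 8.87 and 8.82 untreated and 9.54, 9.62 and 9.40 treated. It rose by 0.68 ± 0.083 (SE; limma, adjusted p = 0.00259), 1.60-fold, and passed under all alternatives. HLA-DMA, the alpha chain, changed by -0.032 to -0.015 over 3 probe sets (adjusted p 0.797 to 0.908), turning to 0.11 to 0.13 after cyclic loess. HLA-DOA (probe set 8180093), of the HLA-DM inhibitor, went from 8.06, 7.98 and 7.96 to 7.64, 7.80 and 7.57, a fall of -0.33 ± 0.087 (limma, adjusted p = 0.0332). That call was lost after cyclic loess, with the replicate number as a block and without any 1 array other than treated replicate 2 (adjusted p up to 0.0982). HLA-DOB read 0.065 and 0.067 on its 2 probe sets (adjusted p 0.681 and 0.674).

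The invariant chain did not pass, and of the endosomal enzymes IFI30 fell. CD74 was read by a probe set also named for ROS1 (8115147), at 11.26, 11.17 and 11.17 untreated and 11.38, 11.42 and 11.46 treated. The groups did not overlap, and the change of 0.22 ± 0.072 did not pass (adjusted p = 0.0608), though it passed in 4 of 14 refits, cyclic loess among them (0.32, adjusted p = 0.0217). IFI30 (probe set 8026971), the thiol reductase that opens disulfide bonds of antigens in lysosomes, went from 12.45, 12.66 and 12.65 to 12.16, 12.24 and 12.16. Its fall of -0.40 ± 0.086 (SE; limma, adjusted p = 0.0169) was lost without untreated replicate 2 or 3 (adjusted p up to 0.0650). The protease gene CTSS, which trims the invariant chain, changed by -0.082 ± 0.075 (adjusted p = 0.456).

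Among the class II transcription factors, RFXANK passed. CIITA (probe set 7993195) read 6.64, 6.56 and 6.73 untreated and 6.42, 6.43 and 6.46 treated. All treated values were lower, but the change of -0.20 ± 0.076 did not pass (adjusted p = 0.0935). It passed with array medians set equal (-0.28, adjusted p = 0.0403) and after cyclic loess (-0.25, adjusted p = 0.0499). Of the RFX complex that binds the X box, RFXANK (probe set 8027139) went from 8.94, 8.92 and 8.98 to 9.22, 9.21 and 9.19. This rise of 0.26 ± 0.068 (limma, adjusted p = 0.0312) was lost when the replicate number was a block, when array medians were set equal and without any 1 array other than treated replicate 3 (adjusted p up to 0.115). RFX5 and RFXAP read -0.037 ± 0.072 and -0.10 ± 0.10 (adjusted p 0.740 and 0.481).

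**Figure D3:**
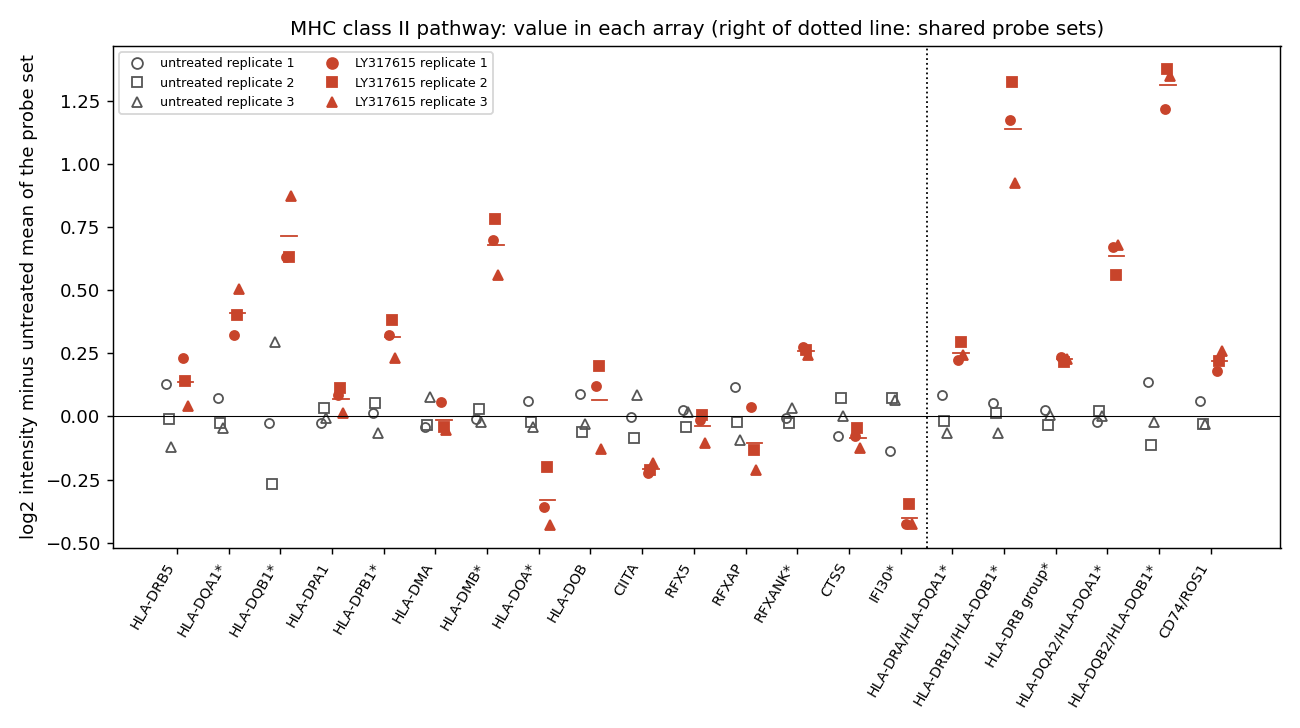
Points show the class II pathway in the same way: log2 intensity of an array minus the untreated mean of the probe set, with red bars at treated means, shared probe sets right of the dotted line and asterisks at an adjusted p under 0.05. HLA-DQ and HLA-DMB points lie highest among the class II genes, IFI30 and HLA-DOA lie below 0, and HLA-DMA, RFX5 and CTSS overlap the untreated points.

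Class I and class II were set side by side by counts and medians, with no test of the difference. Genes read only by shared probe sets are not in the gene counts, so no class I heavy chain, HLA-DRA, HLA-DRB1 or CD74 is included. Of the shared probe sets, 6 of 6 in class I (median 0.71) and 13 of 16 in class II (median 0.63) were higher. None was lower, against 13.7% higher and 14.5% lower of all probe sets with several names. These probe sets include near copies, such as the 4 of HLA-DQA1 with HLA-DQA2 and the 4 of HLA-DQB1 with HLA-DQB2. The 19 rises of both classes became 15 with a replicate block, with equal array medians and without any 1 array. All calls lost in those refits were of class II. After cyclic loess all 22 were higher. Of 11 class I genes with their own probe set, 4 rose and 0 fell, with a median of 0.15. Of 15 class II genes, 5 rose and 2 fell, with a median of 0.065. Over the array, 9.37% of brightest probe sets per gene rose and 18.5% fell. With array medians set equal the counts became 3 and 0 for class I and 3 and 3 for class II, and the class II median turned to -0.014. After cyclic loess 7 of 11 class I genes and 5 of 15 class II genes rose, with medians of 0.27 and 0.13. Leaving out 1 array left 3 to 5 class I genes higher. In class II, 2 were higher without any 1 untreated array and 3 when treated replicate 1 or 2 was left out. The 2 falls became 0 without untreated replicate 2 or 3, and 1 when untreated replicate 1, treated replicate 1 or treated replicate 3 was left out.

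**Figure D4:**
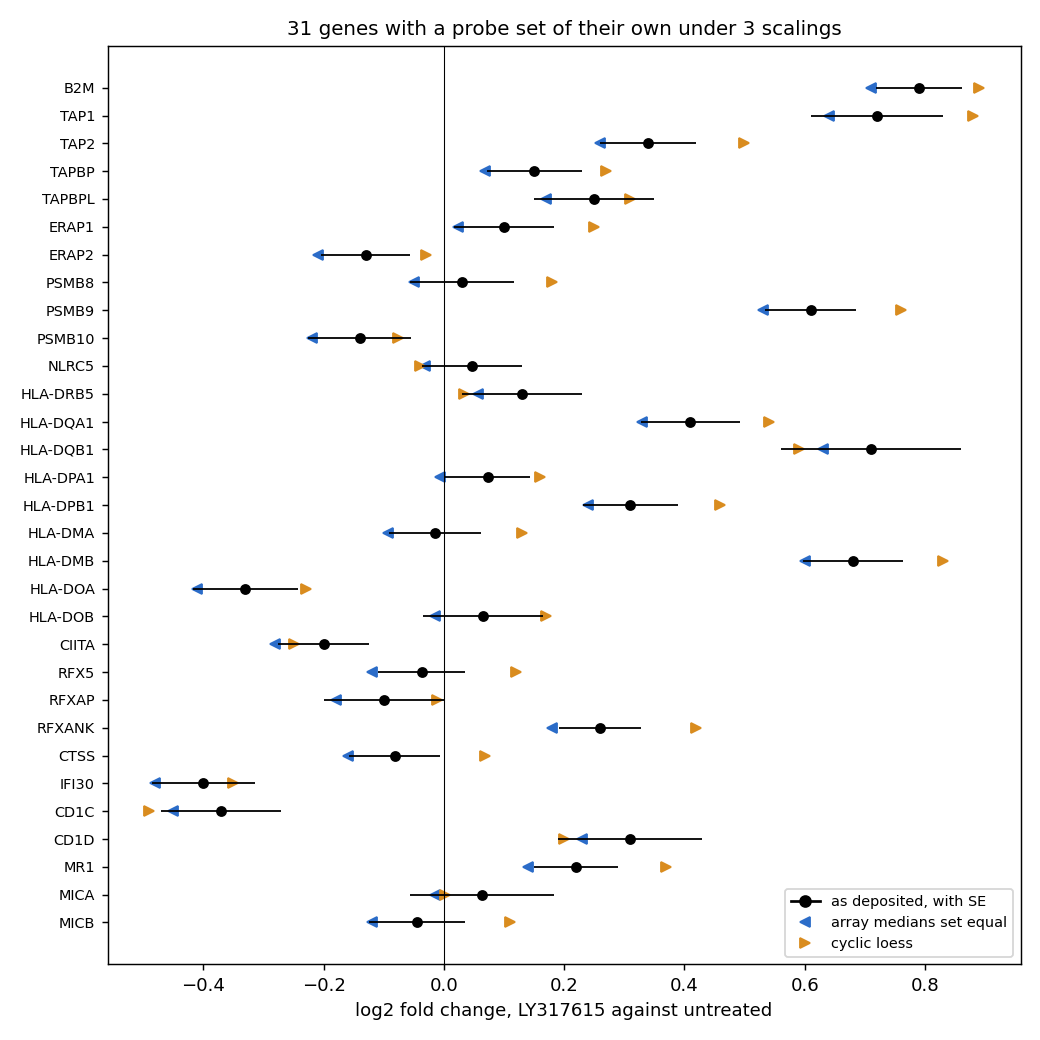
For each of the 31 genes with a probe set of its own, the log2 fold change is drawn for the deposited values (black, with SE), for array medians set equal (blue) and after cyclic loess (orange). B2M, TAP1, PSMB9, HLA-DQB1 and HLA-DMB stay above 0.5 in all 3, while PSMB8, NLRC5, HLA-DPA1, HLA-DMA, HLA-DOB, RFX5, CTSS, MICA and MICB change sign.

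Partner subunits were compared as log2 ratios within each array, for 9 pairs. With 3 arrays against 3, the exact two-sided permutation test cannot go below 0.10, or 0.129 after adjustment over the 9 pairs. The level of a ratio depends on the probes, so only its shift is compared. The HLA-DMB to HLA-DMA ratio was -0.79, -0.76 and -0.93 in untreated and -0.18, 0.00 and -0.21 in treated arrays, a shift of 0.69 without overlap. TAP1 shifted against TAP2 by 0.38, HLA-DPB1 against HLA-DPA1 by 0.24, ERAP1 against ERAP2 by 0.23 and HLA-DOA against HLA-DOB by -0.40. The widest shift was that of PSMB9 against PSMB6, the standard subunit whose place it takes, from -1.52, -1.52 and -1.63 to -0.48, -0.40 and -0.37, a shift of 1.14. PSMB10 against PSMB7 shifted by 0.26, though PSMB10 itself did not pass. All 7 of these ratios were at the smallest exact permutation p (0.10), which any ratio without overlap reaches. Groups did not overlap for 49.8% of single genes on the array, and the share over ratios of all genes was not computed. The pairs were chosen after their values were seen, so these p-values are a description only. PSMB8 against PSMB5 shifted by -0.069 (exact permutation p = 0.50) and HLA-DQB1 against HLA-DQA1 by 0.30 (exact permutation p = 0.30), both with overlapping groups.

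**Figure D5:**
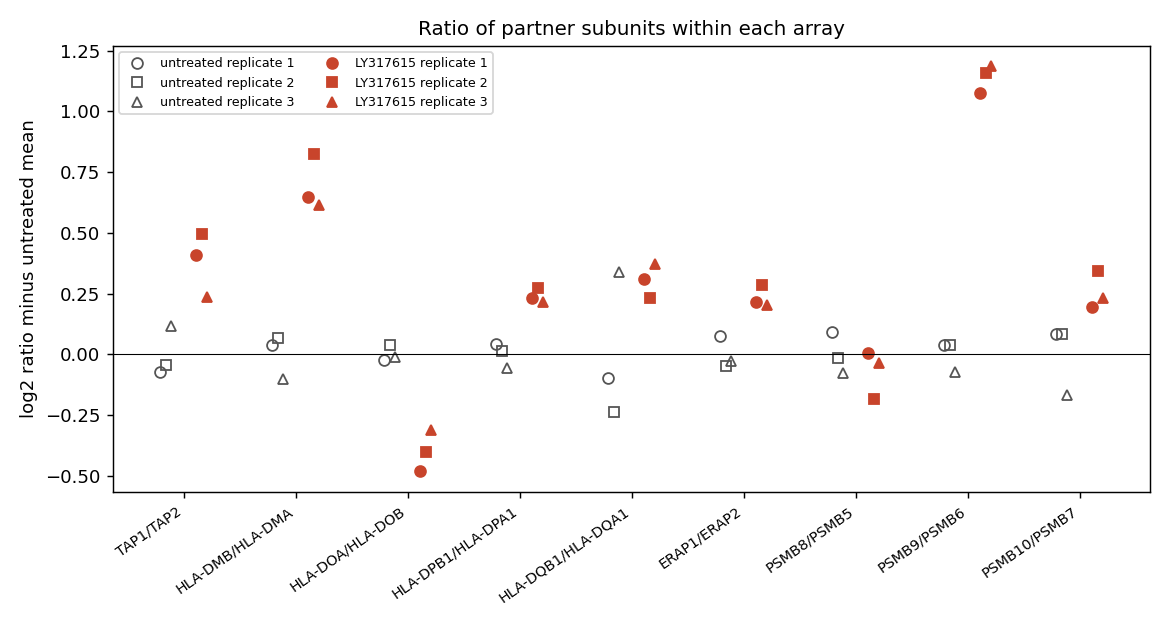
Points are log2 ratios of partner subunits within an array, minus the mean of the untreated arrays. PSMB9/PSMB6 and HLA-DMB/HLA-DMA lie highest after treatment, HLA-DOA/HLA-DOB lies below 0, and PSMB8/PSMB5 overlaps the untreated points.

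The other presenting molecules and stress ligands mostly did not pass. CD1C (probe set 7906348), which presents lipids, was dim and read 5.12, 4.96 and 5.03 untreated and 4.83, 4.52 and 4.65 treated. Its fall of -0.37 ± 0.10 (SE; limma, adjusted p = 0.0361) was lost when the variance prior followed intensity and without any 1 array other than treated replicate 1 (adjusted p up to 0.105). CD1D, which presents lipids to invariant NKT cells, changed by 0.31 ± 0.12, and MR1, which presents microbial metabolites, by 0.22 ± 0.070. Neither passed (adjusted p 0.0925 and 0.0627), although their groups did not overlap. MR1 read 8.68, 8.66 and 8.64 untreated and 8.84, 8.93 and 8.86 treated, and passed in 5 of 15 refits (adjusted p 0.0110 to 0.224). MICA and MICB, ligands of the NKG2D receptor, changed by -0.044 to 0.064 over 4 probe sets (adjusted p 0.718 to 0.940).

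Most other proteasome genes listed were lower. Of 8 standard subunits, activators and an assembly factor, 2 rose and 5 fell, with a median of -0.31, where 9.37% of genes on the array rose and 18.5% fell. This list and those below were chosen with earlier results of these data known, so their counts are a description and no test. PSMB6, PSMB7 and the assembly factor gene POMP changed by -0.53 ± 0.088, -0.40 ± 0.071 and -0.49 ± 0.088 (SE; limma, adjusted p 0.00698, 0.00924 and 0.00957). PSME1, which with PSME2 forms the interferon-inducible PA28 activator, rose by 0.40 ± 0.077 (limma, adjusted p = 0.0117). PSME2, named after its value was seen, rose by 0.31 ± 0.092 (limma, adjusted p = 0.0470), a call lost with array medians set equal. After cyclic loess 3 of the 8 rose and 3 fell. Leaving out any 1 array other than untreated replicate 1 left 1 rise. The falls were 3 without untreated replicate 2 and 4 without any 1 other array.

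Of the factors that act on MHC promoters or upstream of them, 17 of 20 listed were measured. Among these 1 rose and 9 fell, with a median of -0.23, against 9.37% higher and 18.5% lower over all genes. The list was chosen with earlier results of these data known, so the counts are a description only. It was not split by whether a factor raises or lowers MHC genes, so the counts carry no direction for MHC expression. IRF8, an interferon-regulatory factor of B cells, changed by -0.88 ± 0.079 (SE; limma, adjusted p = 0.00121), and the NF-kB subunit RELA by -0.45 ± 0.090. FBXO11, a ubiquitin ligase gene, changed by -0.36 ± 0.074. NFKB1 rose by 0.36 ± 0.076. The Y box binding subunits NFYA, NFYB and NFYC, named after their values were seen, changed by -0.32, -0.38 and -0.33 (limma, adjusted p 0.0254 to 0.0279). IRF1, which binds the ISRE, read -0.040 ± 0.12 (adjusted p = 0.838). The 9 falls became 4 after cyclic loess. They were 2 when untreated replicate 1 or 2 was left out and 1 when untreated replicate 3 was. Leaving out treated replicate 1, 2 or 3 gave 6, 4 and 3, and the rise was lost without untreated replicate 2 or 3.

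In the lists of folding helpers, endosomal proteases and turnover genes, 2 of 7, 2 of 8 and 2 of 5 genes were called, with 27.8% of genes called over the array. Of 7 measured genes listed as folding and loading helpers, not all of which are helpers in the endoplasmic reticulum, 1 fell and 1 rose. The chaperone gene HSPA5 changed by -0.57 ± 0.082 (limma, adjusted p = 0.00446). The gene that rose, SPPL2A, is not such a helper but the protease that clears the CD74 remnant. It changed by 0.43 ± 0.11 (limma, adjusted p = 0.0332). That call was lost under equal array medians and in every fit that left out an array, except that without treated replicate 3. Under equal array medians 2 of the 7 fell, and after cyclic loess 3 rose. The calreticulin gene CALR read 0.064 ± 0.076 (adjusted p = 0.566). Among 8 endosomal proteases 2 rose and 0 fell: CTSH by 0.99 ± 0.11 (limma, adjusted p = 0.00210) and CTSZ by 0.35 ± 0.080 (limma, adjusted p = 0.0215). Only 1 rise was counted under equal array medians or when treated replicate 1 or any untreated array was left out, and 3 when treated replicate 3 was. Cyclic loess gave 3 rises and 1 fall, and equal array medians also 1 fall. Of 5 measured genes of MHC turnover, 2 fell and 0 rose. MARCHF1, the ligase that removes HLA-DR from the B-cell surface, changed by -0.47 ± 0.11 (limma, adjusted p = 0.0240) and RNF145 by -0.28 ± 0.084 (limma, adjusted p = 0.0470). The count of falls was 0 without untreated replicate 1, 2 or 3 and 1 without any treated array or after cyclic loess.

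The arrays read as B cells. The 7 measured B-cell markers lay between the 87.2 and 97.6 percentile of untreated intensity. The highest marker lay at the 77.8 percentile in the dendritic-cell list, 65.8 in the epithelial list and 62.6 in the NK-cell list. It lay at 56.5 for monocytes, 55.8 for fibroblasts and 46.9 for T cells. Of them 5 fell (3 after cyclic loess or without any 1 untreated array) and CD37 rose. For these and the marker counts below, the share over all genes of the array was 9.37% higher and 18.5% lower. The summed linear intensity of the B-cell markers was 10892 to 11398 in untreated and 8594 to 9418 in treated arrays. T-cell markers summed to 203 to 204 and 237 to 272, with 1 of 7 called higher (2 without untreated replicate 1 or treated replicate 2), and monocyte markers to 205 to 221 and 249 to 282, with 2 of 7 called higher (CD14 and CD68). Of the monocyte markers 1 was called under either rescaling and without any 1 array other than treated replicate 1. NK-cell markers summed to 252 to 281 and 234 to 266, dendritic-cell markers to 356 to 411 and 362 to 393, fibroblast markers to 194 to 224 and 217 to 272, and epithelial markers to 236 to 251 and 206 to 250. In these lists 1 of 5 dendritic-cell markers was higher and 1 of 4 epithelial markers lower. The dendritic-cell rise was lost without untreated replicate 1 or 2 or treated replicate 3. The epithelial fall was lost without any 1 array other than treated replicate 2, and 1 epithelial marker was higher without treated replicate 1. The lists differ in length, so sums are compared only within a list. No value on the array was 0, so a dim marker is not known to be absent, and the part of these shifts in the member results was not tested. Treated replicate 3 had the lowest array weight, 0.457 against 0.990 to 1.43 for the others; without it 18 of the 52 single-gene member probe sets were higher and 2 lower. In bulk RNA fewer cells of a kind and less RNA per cell cannot be told apart.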

How the data were processed

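Total RNA of the 6 samples was measured on Affymetrix Gene 1.0 ST arrays. The authors deposited linear intensities for each probe set, made with RMA, Affymetrix Expression Console and GCOS 1.4, per the submitters' processing notes, which state no order. Since RMA works in log2, a step back to linear values is implied but not stated. Log2 was taken with no added constant. Each of 33297 probe sets was tested with limma 3.58.1 (R 4.3.3; lmFit and eBayes, no trend, two-sided) and Benjamini-Hochberg adjustment over the whole table at 0.05. Where a gene had several probe sets, the brightest over 6 arrays stood for it. Gene names came from the platform annotation, updated by Entrez ID. Motifs were searched with Python 3.11.15, and figures used matplotlib 3.10.9. The code was tested on simulated data.

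The members and lists were chosen with earlier results of these data known. All members were named by rule, with values in every array for those that passed and for NLRC5 and CIITA. In each other list up to 4 genes that passed were named, by smallest adjusted p. Exceptions are the array values of CD74 and MR1, and PSME2, NFYA, NFYB, NFYC, IRF1, CALR, ULBP3, CD80, CD86, CD37, CD14 and CD68, chosen after their values were seen, as were the partner pairs. Refits used array medians set equal, cyclic loess, a variance prior with a trend or robust, array weights, leaving out the dimmest 30%, 1 probe set per gene, named probe sets only, an adjusted p of 0.01, each array left out and a replicate block. No scan dates or detection calls were used. The number of arrays limits the precision.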

Additional observations from a re-analysis of the deposited data

How the results depend on the processing

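The replicate number as a block left 7112 calls over the array, 2 lower member probe sets of a single gene in place of 4 and 1 lower in class II in place of 3. Same-numbered arrays deviated together only weakly (correlations 0.015, 0.069 and 0.12), so the numbers were not taken to pair the samples. With array medians set equal, 4 class II probe sets were higher in place of 8, and the class II median turned to -0.0085; after cyclic loess it was 0.16, and the class I median 0.31. With the brightest probe set of each gene only, higher counts were 10 for members, 4 for class I and 5 for class II, with a class I median of 0.15 and a difference from class II of 0.083 (0.18 over all single-gene probe sets); shared probe sets have no value there. At an adjusted p of 0.01 there were 3192 calls over the array, 9 higher and 0 lower members, and 2 higher and 0 lower in class II. Leaving out each array in turn gave 4599 to 6875 calls over the array, 10 to 18 higher and 0 to 3 lower members, 3 to 7 higher and 0 to 3 lower in class II, a class II median of 0.027 to 0.14 and a class difference of 0.14 to 0.20. The cause of these shifts was not tested.

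Sign changes were seen in member probe sets that did not pass. With array medians set equal, TAPBP 8125713 read -0.0062, PSMB8 -0.049, NLRC5 -0.032, HLA-DPA1 8180100 -0.0057, HLA-DOB -0.011 and -0.014, MICA 8118100 -0.014 and MICB 8177955 -0.069. After cyclic loess, NLRC5 read -0.040, HLA-DMA 0.11 and 0.13, RFX5 0.12, CTSS 0.069 and MICB 8118116 0.11. Leaving out each array in turn gave TAPBP 8125713 from -0.0057 to 0.16, PSMB8 8125500 from -0.039 to 0.084, HLA-DMA 8125537 from -0.079 to 0.0012, HLA-DMA 8178884 from -0.050 to 0.024, HLA-DOB 8125470 from -0.0013 to 0.16, HLA-DOB 8178833 from -0.0033 to 0.16, MICA 8118100 from -0.0069 to 0.18, MICA 8179238 from -0.12 to 0.045, MICB 8118116 from -0.084 to 0.0087 and MICB 8177955 from -0.028 to 0.050.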

Other observations

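Of 17 measured genes for CD1 proteins, NKG2D ligands and costimulation, 3 rose and 2 fell, beside 9.37% of genes higher and 18.5% lower over the array, with a median of 0.037 that turned to -0.042 under equal array medians, -0.034 after cyclic loess and -0.038 without untreated replicate 1. ULBP1, a stress-induced ligand of the NK-cell receptor NKG2D, had the largest change at -1.47 ± 0.11 on the log2 scale (SE; limma, adjusted p = 0.000916). Its relative ULBP3 changed by -0.42 ± 0.12 (limma, adjusted p = 0.0397). CD40, the receptor for T-cell help, rose by 0.51 ± 0.13 (limma, adjusted p = 0.0307), a call lost with array medians set equal (adjusted p = 0.0525). CD1A and PDCD1LG2, both dim, rose by 0.57 ± 0.12 and 0.33 ± 0.070 (limma, adjusted p 0.0168 and 0.0155). The costimulatory genes CD80 and CD86 read -0.40 ± 0.14 and -0.20 ± 0.078 and did not pass (adjusted p 0.0740 and 0.106). CD80 passed under equal array medians (-0.48, adjusted p = 0.0337) and after cyclic loess (-0.53, adjusted p = 0.0248). The 3 rises became 0 without untreated replicate 1 or 2 and 1 without untreated replicate 3, and the 2 falls became 1 without any 1 array other than untreated replicate 1.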
